A study of Homo sapiens with 33 samples.

Results

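FIRRE is a long noncoding RNA transcribed from the X chromosome, and 52 of the 985 oligonucleotides (tiles) of the CTCF pool carry its name. They were taken as the tiles named FIRRE with a number after it, 1 to 52 without a gap, and each was present with 24 barcodes, which gave 1248 barcoded oligonucleotides. All 52 passed the filter on low counts, as did 977 of all tiles. The tiles were not chosen on their counts.

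HEK293T, a line derived from human embryonic kidney, received the pool and overexpressed CTCF fused to FLAG and GFP. Cells were collected 48 hours later and fixed in 0.1% formaldehyde for 10 minutes. The immunoprecipitate was obtained with an antibody against FLAG from these cells, and Input is RNA from the same kind of cells without precipitation, so the added CTCF was present in both groups. Each group held 3 libraries, numbered 1 to 3. Primers to the universal ends of the oligonucleotides made the libraries, so the counts refer to transfected tiles and not to the FIRRE RNA of the cells. The protein was overexpressed and tagged, and no precipitation without FLAG or without CTCF was among the 6 libraries, so recovery with CTCF and recovery with any FLAG precipitation cannot be told apart. Separate cultures for the numbered libraries are not stated, so the tests rest on a spread that may be technical.

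CTCF is a zinc-finger protein that binds DNA and, with cohesin, holds chromatin loops in place, and it also binds RNA. The FIRRE gene itself contains many DNA sites for CTCF. FIRRE RNA is found mainly in the nucleus, carries copies of a repeated domain that binds the nuclear matrix protein HNRNPU, and in mouse cells Firre helps to keep the inactive X chromosome beside the nucleolus. The comparison of immunoprecipitate with Input asks which stretches of FIRRE are recovered with CTCF. Tile names give a number but no position, and the sequences of the tiles were not used here, so a tile number is read only as a name in an order. Whether neighbouring numbers overlap in sequence, or tiles hold copies of the repeat, was not tested.

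The immunoprecipitate libraries held 44570966 to 58020403 reads, of which 2647318 to 3549625 were FIRRE reads. The Input libraries held 35234255 to 51341630 reads, of which 1971244 to 2779296 were FIRRE reads. Both libraries numbered 1 stood apart from the others. A chi-square test of tile counts gave a statistic per degree of freedom of 4611 and 4177 between immunoprecipitate 1 and the other two, against 829 between immunoprecipitates 2 and 3. The same statistic was 2169 and 1887 for Input 1 and 257 between Inputs 2 and 3. Over the FIRRE tiles, the deviations of same-numbered libraries from their group means correlated at 0.73, 0.45 and 0.42 for numbers 1, 2 and 3 (Pearson's r, n = 52 tiles, which share their libraries). Numbers 2 and 3 were not told apart in this way, since immunoprecipitate 2 correlated with Input 3 at 0.67 and immunoprecipitate 3 with Input 2 at 0.47. Results are given both without and with the replicate number as a block, and with each number left out.

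FIRRE tiles together took a slightly larger share of the immunoprecipitate. They made up 5.87%, 6.19% and 5.94% of the reads in immunoprecipitates 1, 2 and 3, against 5.59%, 5.27% and 5.41% in Inputs 1, 2 and 3 (Wilson 95% intervals within 0.00759 percentage points of each value, for counting error only). The groups did not overlap, and the share in the immunoprecipitate was 1.05, 1.17 and 1.10 times that in the Input of the same number. By number of tiles FIRRE is 5.28% of the pool. The shares of the JPX, GAPDH, PPIA, SRA1, WRAP53 and MBP tiles were also higher in each immunoprecipitate than in the Input of the same number. Those of the XIST and TSIX tiles were lower. The mean FIRRE share was 6.00 ± 0.17% in the immunoprecipitate and 5.43 ± 0.16% in Input (SD, n = 3 each).

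Single FIRRE tiles differed by little between the groups, and they went both ways. On counts scaled by TMM (a factor that centres most tiles of the pool on no change), the log2 fold change of immunoprecipitate over Input ran from -0.65 to 1.06 over the 52 tiles, with a median of 0.14 and quartiles of -0.12 and 0.47. The median over all 977 tested tiles was 0.00. It was 0.22 for the 21 JPX tiles, 0.03 for the 243 tested XIST tiles and -0.17 for the 471 tested TSIX tiles. These are the other X-linked noncoding RNAs of the pool. The remaining source RNAs all had higher medians than FIRRE: 0.53 for WRAP53, 0.53 for GAPDH, 0.40 for SRA1, 0.27 for MBP and 0.26 for PPIA. Only XIST and TSIX lay below FIRRE, and no test of these medians against FIRRE was made. The FIRRE median held its sign in each pair of same-numbered libraries, at 0.17, 0.30 and 0.19. Scaled on the tiles of the housekeeping mRNAs GAPDH and PPIA alone, which moved the median of all tiles to -0.46, it turned to -0.33, so its sign is relative to the tiles used for scaling. Relative to the median of all tiles, it was 0.13 higher under either scaling. A change of scaling shifts all tiles by nearly the same amount, so this distance could hardly have differed.

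Without the block, edgeR's quasi-likelihood test called 0 FIRRE tiles higher, where it called 2.87% of all tested tiles higher, and 0 lower, where it called 1.94% lower (Benjamini-Hochberg adjusted p under 0.05 over all 977 tiles). At an unadjusted p under 0.05 there were 13 FIRRE tiles higher and 5 lower, where 15.4% and 12.9% of all tiles had such a p. DESeq2 called 7 FIRRE tiles higher and 2 lower, where it called 10.2% and 7.57% of all tiles. With the replicate number as a block, edgeR called 13 FIRRE tiles higher, or 25% of the 52, where 15.5% of all tiles were called higher. It called 3 lower, or 5.77%, where 12.2% of all tiles were called lower. The share called higher was larger than in FIRRE for WRAP53 (17 of 28 tested tiles), GAPDH (12 of 20), JPX (8 of 21), SRA1 (9 of 26) and PPIA (10 of 29). It was smaller for MBP (20 of 87), XIST (39 of 243) and TSIX (23 of 471). In both directions together the 16 calls were 30.8% of the FIRRE tiles, near the 27.6% of the pool. The 13 higher tiles were numbers 1, 2, 10 to 14, 20, 28 to 30, 32 and 34, and the 3 lower ones were numbers 18, 24 and 42. The other 36 tiles had blocked log2 fold changes that did not pass.

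The number of blocked calls depended on which libraries were kept. Without both libraries numbered 1, the blocked fit called 21 FIRRE tiles higher and 6 lower, among them all 16, where it called 24.9% of all tiles higher and 23.6% lower. Without number 2 it called 3 higher (FIRRE_2, FIRRE_12 and FIRRE_34) and 1 lower (FIRRE_24), where it called 6.25% and 4.41% of all tiles. Without number 3 it called 0 FIRRE tiles and 0 tiles of the whole pool. With 2 pairs left, these fits draw largely on a spread pooled over tiles. All 16 tiles kept their direction in each of these fits. Each had the same sign in all 3 pairs, so leaving out a pair could not have turned it. Scaled on GAPDH and PPIA tiles, 12 of the 13 higher tiles were still above 0 but only FIRRE_2 and FIRRE_12 passed, while all 3 lower tiles passed. In that fit 17 of the 52 FIRRE tiles were called lower, where 44.1% of all tiles were, and 2 higher, where 3.38% were.

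FIRRE_2 had the largest difference in the unblocked fit. It was at 1358, 1012 and 794 CPM in immunoprecipitates 1, 2 and 3, against 604, 428 and 489 CPM in Inputs 1, 2 and 3. All immunoprecipitate values lay above all Input values, and the same-numbered libraries differed by 1.17, 1.24 and 0.70 on the log2 scale. The tile was 2.08-fold higher (log2 fold change 1.06 ± 0.24, SE, n = 3 against 3) with an adjusted p of 0.0554 in edgeR without the block, and 1.04 ± 0.16 with an adjusted p of 0.0109 with it. It ranked 21 from the top among the 977 tiles. Of its 24 barcodes, 21 were higher on average over the pairs.

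FIRRE_12 was at 1575, 914 and 1049 CPM in the immunoprecipitate, against 888, 376 and 444 CPM in Input. The groups did not overlap, although Input 1 came close to the lowest immunoprecipitate value. Both libraries numbered 1 were high for this tile, by 0.69 in the immunoprecipitate and 1.12 in Input on the log2 scale relative to numbers 2 and 3. The log2 fold change was 1.05 ± 0.37 without the block (adjusted p = 0.122 in edgeR) and 1.12 ± 0.15 with it (adjusted p = 0.00912), the smallest blocked p of the FIRRE tiles. Of its 24 barcodes 22 were higher on average, and 15 were higher in all 3 pairs.

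FIRRE_12 lay in a stretch of tile numbers that went the same way. FIRRE_9 to FIRRE_14 were all above Input in all 3 pairs, and FIRRE_10 to FIRRE_14 formed the highest run of 5 consecutive numbers, with a mean log2 fold change of 0.83. The mean over these 5 tiles was 0.81, 0.94 and 0.73 in pairs 1, 2 and 3 (SD 0.10), and all 5 passed with the block. The run was picked by its values, so these are descriptions.

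Within the stretch, FIRRE_11 was at 537, 307 and 266 CPM in the immunoprecipitate, against 236, 157 and 145 CPM in Input. It was the scarcest of the 13 higher tiles, its groups did not overlap, and it was 2.06-fold higher (log2 fold change 1.05 ± 0.37, adjusted p = 0.124 in edgeR without the block, 0.0270 with it). FIRRE_10 was at 805, 566 and 458 CPM in the immunoprecipitate, against 469, 257 and 332 CPM in Input. Its groups overlapped, since Input 1 lay above immunoprecipitate 3, but each pair went the same way (log2 fold change 0.79 ± 0.31, adjusted p = 0.150 in edgeR without the block, 0.0346 with it). FIRRE_13 and FIRRE_14 also overlapped between groups. In FIRRE_14 both libraries numbered 1 were high, at 3798 CPM in the immunoprecipitate and 2328 CPM in Input, and the log2 fold change was 0.55 ± 0.36 without the block and 0.50 ± 0.12 with it.

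A further stretch of higher values ran over FIRRE_25 to FIRRE_30, again 6 tiles above Input in all 3 pairs, of which 3 passed with the block. This stretch too was picked by its values. FIRRE_30 was at 1539, 1212 and 838 CPM in the immunoprecipitate, against 944, 454 and 601 CPM in Input. Input 1 exceeded immunoprecipitate 3, so the groups overlapped. The pairs differed by 0.70, 1.42 and 0.48 on the log2 scale, and the log2 fold change was 0.84 ± 0.32 without the block (adjusted p = 0.147 in edgeR) and 0.87 ± 0.20 with it (adjusted p = 0.0223). FIRRE_31, next in number, broke the stretch: it was at 3756, 3985 and 3863 CPM in the immunoprecipitate, against 4779, 2556 and 2867 CPM in Input. Its immunoprecipitate values were nearly equal while Input 1 was far above Inputs 2 and 3, so pair 1 was at -0.35 and pairs 2 and 3 were at 0.64 and 0.43. With the block and all libraries its log2 fold change was 0.24 (adjusted p = 0.398 in edgeR), which did not pass. Without number 1, the pair that went the other way, it was 0.54 (adjusted p = 6.46e-08 in edgeR). With 2 pairs left, that p draws largely on a spread pooled over tiles. Without number 2 the log2 fold change was 0.04 (adjusted p = 0.956 in edgeR). Without number 3 it was 0.15 (adjusted p = 0.770), and neither passed.

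The tiles lower in the immunoprecipitate were fewer and did not lie in long stretches. FIRRE_42 was the most even: it was at 551, 579 and 579 CPM in the immunoprecipitate, against 840, 886 and 885 CPM in Input. The groups were far apart for their spread, and the log2 ratio was -0.61 in each of the 3 pairs (SD 0.0021). The log2 fold change was -0.61 ± 0.14, with an adjusted p of 0.0569 in edgeR without the block and 0.0235 with it. Of its 24 barcodes 3 were higher on average, and 12 were lower in all 3 pairs.

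FIRRE_24 had the lowest value of the 52 tiles. It was at 1058, 1506 and 1070 CPM in the immunoprecipitate, against 1504, 2128 and 2086 CPM in Input. Immunoprecipitate 2 and Input 1 were almost equal, so the groups overlapped, while each pair was lower, by -0.51, -0.50 and -0.96. The log2 fold change was -0.65 ± 0.21 (adjusted p = 0.0947 in edgeR without the block, 0.0181 with it), and 2 of 24 barcodes were higher on average.

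FIRRE_18 was at 1289, 1669 and 1368 CPM in the immunoprecipitate, against 1597, 2052 and 2219 CPM in Input. The groups overlapped at Input 1, each pair was lower, and the tile passed with the block (log2 fold change -0.43 ± 0.13, adjusted p = 0.0461 in edgeR). FIRRE_43, beside FIRRE_42, was at 419, 579 and 592 CPM in the immunoprecipitate, against 743, 782 and 702 CPM in Input. Its groups did not overlap, but it did not pass with the block (log2 fold change -0.50 ± 0.18, adjusted p = 0.0769 in edgeR). FIRRE_40 was at 239, 595 and 460 CPM in the immunoprecipitate, against 424, 567 and 687 CPM in Input, and its pairs went both ways. The lowest run of 5 numbers, FIRRE_40 to FIRRE_44, had a mean log2 fold change of only -0.22, with -0.45, -0.05 and -0.22 in the pairs (SD 0.20), and it includes FIRRE_44, which was above Input in all 3 pairs.

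Over all 52 tiles, the immunoprecipitate was above Input in all 3 pairs in 23 tiles, or 44.2%, where 30.9% of all tested tiles did so. It was below in all 3 pairs in 9 tiles, or 17.3%, where 31.1% of all tiles did so, and 20 tiles were mixed. The groups did not overlap in 14 FIRRE tiles with the immunoprecipitate above (26.9%, against 18.1% of all tiles) and in 5 with it below (9.62%, against 15.7%). No test of these shares was made. From FIRRE_40 to FIRRE_52 a single tile, FIRRE_44, was higher in all 3 pairs and 5 were lower in all 3, while no tile there was called higher with the block. Of all tested tiles, 31.1% were lower in all 3 pairs and 15.5% were called higher with the block. This stretch was picked after its values were seen, so these counts are descriptions.

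The pairs ordered the FIRRE tiles in a similar way. Across the 52 tiles the log2 ratio of pair 1 correlated with that of pair 2 at r = 0.62 and of pair 3 at 0.56, and pair 2 with pair 3 at 0.72 (Spearman's rho 0.59, 0.55 and 0.75). Tiles of neighbouring number had related values: the log2 fold change of a tile correlated with that of the next at r = 0.37, and the log2 Input level did so at 0.45 (n = 51 neighbours). The log2 fold change fell weakly with the log2 Input level (r = -0.20, rho -0.26, n = 52). These tiles share libraries, and neighbouring tiles may share sequence, so the values are descriptions.

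The tiles differed widely in abundance. The mean level ran from 33.3 to 3868 CPM in the immunoprecipitate, with a median of 994, and from 30.4 to 3401 CPM in Input, with a median of 832. FIRRE_4 had the most Input reads, 439702 over 3 libraries, and was at 2707, 2758 and 2508 CPM in the immunoprecipitate, against 3188, 3411 and 3346 CPM in Input. Its groups did not overlap, yet the log2 fold change of -0.32 ± 0.13 did not pass in edgeR with or without the block (adjusted p = 0.0772 and 0.165).

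At the other end, FIRRE_48 had 4188 Input reads and FIRRE_36 had 12852. FIRRE_48 was at 12.3, 51.1 and 36.6 CPM in the immunoprecipitate, against 20.6, 29.7 and 40.9 CPM in Input, and its log2 fold change of 0.13 ± 0.75 has no clear sign. FIRRE_36 was at 64.0, 77.5 and 94.2 CPM in the immunoprecipitate, against 121, 106 and 72.6 CPM in Input, with a log2 fold change of -0.35 ± 0.42. A difference as large as that of FIRRE_2 was not detectable in FIRRE_48. The SE of FIRRE_48 was 0.75, against a median SE of 0.20 for the FIRRE tiles, and the source of its wide spread was not tested.

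The reads of a tile were spread over its barcodes. The barcode with the most reads held 6.18% to 13.0% of a tile's reads, with a median of 8.57%. Of the 1248 FIRRE barcodes, 46, 55 and 54 had no read in immunoprecipitates 1, 2 and 3, against 17, 25 and 11 in Inputs 1, 2 and 3, and 6 had none in any library. Empty barcodes were thus more frequent in every immunoprecipitate than in any Input, although immunoprecipitates 1 and 2 had more reads than any Input. The same held in the whole pool, where 7.16% to 8.92% of barcodes were empty in the immunoprecipitate, against 3.00% to 4.34% in Input; for FIRRE these shares were 3.69% to 4.41% and 0.881% to 2.0%. Empty FIRRE barcodes were most frequent in scarce tiles: FIRRE_37 had 34 empty values of 72 in the immunoprecipitate, against 11 of 72 in Input, and FIRRE_48 had 25 of 72, against 7 of 72.

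The spread among the 24 barcodes of a tile was wide. The interquartile range of their log2 ratios (0.5 reads added to each count, 1241 barcodes with at least 30 reads, mean of the 3 pairs) had a median of 0.95 over the tiles. It was widest in FIRRE_48 (4.53) and FIRRE_37 (4.04), and narrowest in FIRRE_21 (0.39) and FIRRE_4 (0.39), which are among the most abundant. FIRRE_21 was at 3165, 3945 and 4034 CPM in the immunoprecipitate, against 2812, 3186 and 3520 CPM in Input, with 18 of 24 barcodes higher on average. FIRRE_37 was at 108, 139 and 188 CPM in the immunoprecipitate, against 140, 197 and 152 CPM in Input, with 3 of 24 barcodes higher on average although the log2 fold change of the summed tile was only -0.17 ± 0.35.

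Single barcodes repeated less well between the pairs than summed tiles. Across the 1241 barcodes the log2 ratio of pair 1 correlated with pair 2 at r = 0.14 and with pair 3 at 0.11, and pair 2 with pair 3 at 0.05, and 28.9% of the variance of the barcode log2 ratios lay between tiles. Of these barcodes 619 (49.9%) were higher on average, 224 (18.05%) were higher in all 3 pairs and 181 (14.6%) were lower in all 3. Their median log2 ratio was -0.0026, so single barcodes were evenly split although the median of the summed tiles was above 0. Shares over all barcodes of the pool are not given, so these counts describe FIRRE alone. Tested one by one, edgeR called 0 of 1228 FIRRE barcodes and 0% of the 22488 tested in the pool, with or without the block. The same test also missed every known change put into simulated barcode counts, all of 2-fold or less. The lack of calls therefore does not show that single barcodes were unchanged, and larger changes were not simulated. At an unadjusted p under 0.05 there were 81 FIRRE barcodes higher (6.60%, against 5.06% of the pool) and 21 lower (1.71%, against 2.86%). DESeq2 was not run on barcodes. Barcodes of 1 tile share its sequence, so their counts describe how evenly a tile moved and are not replicates.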

How the data were processed

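The authors deposited raw read counts for each barcode of each tile in each library; that they are counts follows from whole values with differing totals. Libraries came from single-end amplicon sequencing, per the labels' protocols. The read assignment is not given in the sources used here, and no molecular identifiers are named. Reads amplified by PCR without them are not separate molecules, so intervals cover counting error only. Columns were matched to samples by title, with 0 columns left unmatched. The tables of the other 4 pools were not used.

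Counts were summed over the 24 barcodes of a tile. All tiles of the CTCF pool were fitted together in R 4.3.3 with filterByExpr, TMM scaling and the quasi-likelihood test of edgeR 4.0.16 (robust), which recovered known changes in simulated tile counts but not in simulated barcode counts. CPM refer to library size times the TMM factor. SE was taken as the size of the log2 fold change over the square root of the F statistic. Adjusted p values are Benjamini-Hochberg values over all tested tiles. A block for the replicate number, DESeq2 1.42.0 and other scalings, filters and left-out libraries were alternatives. The labels do not say what a shared number marks. Over all 977 tiles, deviations of same-numbered libraries correlated at 0.70, 0.68 and 0.29. This was taken as pairing, although immunoprecipitate 3 correlated more with Input 2 (0.57).

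Named tiles are the 5 highest and 5 lowest, the 5 highest and all lower calls with the block, and the 2 extremes of Input reads and of barcode spread; other tiles were named after their values were seen. The members, tests and rules were chosen with earlier results of these data known.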

Additional observations from a re-analysis of the deposited data

How the results depend on the processing

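The calls depended on pairing, on the libraries kept and on scaling. The unblocked fit called 0 FIRRE tiles in either direction, and so it did with RLE size factors, without a filter, with tiles averaging at least 50 reads and with a log2 fold change of at least 1 required. In these fits 1.23% to 2.87% of all tiles were called higher and 0.614% to 1.95% lower. The unblocked fit called 1 higher with library size only, where 4.09% of all tiles were called higher and 2.66% lower. It called 1 higher (FIRRE_2) when each tile lost its most-read barcode (2.87% and 1.84% of all tiles). With TMM factors from GAPDH and PPIA tiles it called 1 lower (FIRRE_42), where the shares of all tiles were 0% and 6.55%. DESeq2 gave 7 higher and 2 lower (10.2% and 7.57% of all tiles). The replicate block gave 13 higher and 3 lower (15.5% and 12.2% of all tiles), and the same counts with RLE size factors (15.6% and 11.5%). With library size only it gave 12 and 4 (13.2% and 12.1%), and without the barcode of most reads 13 and 2 (15.4% and 12.7%). In DESeq2 it gave 22 and 8 (26% and 24.5% of all tiles), and with GAPDH and PPIA scaling 2 and 17 (3.38% and 44.1%). These combinations of the block with another choice were added after the data were seen. The cause of these shifts was not tested.

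Leaving out 1 library at a time, the unblocked fit called 0 to 5 tiles higher and 0 to 2 lower, with a median FIRRE log2 fold change of 0.11 to 0.21. Calls were made without Input 1 (5 higher, 2 lower), where 8.5% of all tiles were called higher and 5.32% lower. They were also made without immunoprecipitate 1 (4 higher, 1 lower), where the shares of all tiles were 5.83% and 5.53%. Without any other single library, the unblocked fit called no tile of FIRRE or of the whole pool. Leaving out both libraries of a number, it called 20 higher and 7 lower without number 1 (24.4% and 21.9% of all tiles) and none, in FIRRE or the whole pool, without number 2 or 3, at medians of 0.22, 0.22 and 0.18. With the block, the calls were 21 higher and 6 lower without number 1 (24.9% and 23.6% of all tiles). They were 3 and 1 without number 2 (6.25% and 4.41%), and 0 without number 3, in FIRRE and in the whole pool. The median was -0.33 with GAPDH and PPIA scaling, and -0.32 with that scaling and the block.

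Among the named tiles, 4 changed sign in some setting. FIRRE_31 was at -0.21 and FIRRE_21 at -0.23 with GAPDH and PPIA scaling, with or without the block, and FIRRE_31 was at -0.0049 and FIRRE_37 at 0.017 without number 2. FIRRE_48, the scarcest tile, changed sign in 12 of 25 settings. It was at -0.29 with GAPDH and PPIA scaling and -0.49 with the block added, at -0.068 without its barcode of most reads and -0.21 with the block added, and at -0.044 with the block alone. With the block it was at -0.035 by RLE, -0.053 by library size and -0.034 in DESeq2. It was at -0.33 without number 2 and -0.45 with the block added, and single libraries left out put it between -0.33 and 0.51. The FIRRE share of reads held in all its alternatives. All immunoprecipitate shares lay above all Input shares, so leaving out a library could not have turned the difference. This difference was 0.575 percentage points both over all tiles and over tested tiles only. The count of called barcodes was 0 in every setting, in FIRRE and in the whole pool. That test also missed every change in simulated barcode counts, all of 2-fold or less, so this count does not show stability.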
